A study of Pinus pinaster with 24 samples.

Results

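The features described here are the 200 of 67271 transcript features of maritime pine whose level stood highest in roots above the rest of the seedling and changed little in roots after sulfate. They were chosen by measured values. On the scale log2(level + 0.5), the mean of the 3 control libraries was taken in each organ, and features whose sulfate and control means in roots differed by 0.5 or more were set aside. Of the remainder, the 200 with the largest margin, the roots mean minus the highest of the stem, needles and cotyledons means, were kept. The choice thus used all 12 control libraries and the 3 sulfate root libraries, and the values of those libraries are given below as a description. Only the 9 sulfate libraries of stem, needles and cotyledons played no part in it.

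Seedlings of Pinus pinaster, a conifer, were grown from seed of the Segura-Alcaraz provenance in vermiculite. All of them, in both groups, received 0.3 mM KNO3 weekly for 3 months from the age of 1 month, which left them short of sulfur. The sulfate group was then watered with 0.5 mM K2SO4 and the control group with 1 mM KCl, and roots, stem, needles and cotyledons were frozen 24 hours later, at an age of 4 months. Each organ and treatment has 3 libraries, each made from a pool of 13 to 14 seedlings, so the control seedlings were sulfur-starved too, and no group kept on full nutrition is among the samples used here. The labels call the pools biological replicates but say nothing of separate growth runs, so p-values below measure the spread between such pools.

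Roots take up water, nitrate and sulfate, anchor the plant and, in pines, house fungal partners, and many transporters, cell-wall enzymes and defence proteins are known in plants to be made mainly there. Sulfate enters root cells through proton-coupled transporters, moves to the shoot in the xylem and is reduced mainly in plastids to make cysteine, and starvation raises many genes of uptake and assimilation, which fall again on resupply. The features described here were chosen to differ little between sulfate and control means in roots, which leaves out larger differences there. Smaller responses in roots, and any response in the shoot, were not excluded by that choice. The identifiers carry no gene names and no annotation pairs them with any, so none can be assigned a function, defining root markers cannot be looked up, and the organ labels cannot be checked against named genes. For the same reason no list of sulfur, nitrate or root cell-type genes could be followed, and no sequence is shown. In whole organs, a lower level from fewer cells of a type and one from less RNA per cell cannot be told apart.

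Levels are given in normalized CPM, the deposited unit, that is, CPM on a library size the authors had rescaled. The files give no feature lengths, so an order of levels between features is an order of reads, not of molecules. Libraries held 92664463 to 195881948 reads, and 3 reads, taken below as the smallest count worth reading, correspond to 0.0165 to 0.0351 normalized CPM depending on the library. Relative to plain CPM, root columns totalled 0.822 to 0.835, stem columns 0.909 to 0.938, needle columns 1.02 to 1.141 and cotyledon columns 1.04 to 1.08. They were alike within an organ, so levels set across organs rest on the authors' scaling. Choosing again on plain CPM returned 198 of the 200 members.

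The values that chose the members were as follows. The margin was 7.83 for the first member (228-fold on the scale of level + 0.5), 4.99 at the median (31.7-fold) and 4.41 for the last (21.3-fold). The same rule applied to the other organs ended at smaller margins at its 200th feature, 3.32 in needles, 2.41 in cotyledons and 2.05 in stem, while the first needle feature, at 9.22, lay above the first root member. Only 78 needle features, 9 cotyledon features and 6 stem features lay over the margin at which the root list ended. Just inside that end lay PpCO2_168953 with a margin of 4.43, PpCO2_74949 with 4.42 and PpCO2_179732 with 4.41, and just outside it lay PpCO2_135049 with 4.41, PpCO2_75343 with 4.39 and PpCO2_63115 with 4.38. The ranking is therefore continuous at its end, with no gap between members and the next features.

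The limit on the sulfate difference set aside few features. Of all 67271 features, 94.9% lay under it, and only 12 with a margin large enough for the list lay over it, 6 higher and 6 lower with sulfate. Their differences ran from -1.03 for PpCO2_102086 to 0.63 for PpCO2_173191. Members nearest the limit were PpCO2_83241 at 0.50 and PpCO2_111221 at -0.50, and features just beyond it were PpCO2_132367 at 0.51 and PpCO2_78094 at 0.53. PpCO2_102086 averaged 54.4 ± 34.8 normalized CPM in sulfate roots and 97.1 ± 4.41 in control roots (SD, n = 3 each), so its place outside the limit came with a wide spread among the sulfate pools.

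**Figure D1:**
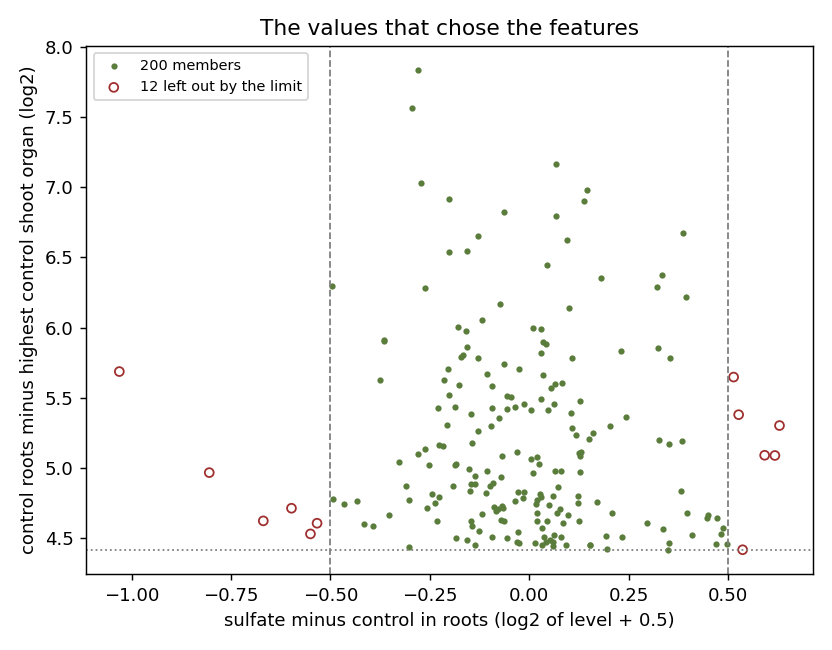
Sulfate minus control difference in roots (x axis, log2 of level + 0.5) against the margin of control roots over the highest control shoot organ (y axis, log2), 1 point per feature. The 200 members (filled) lie between the dashed limits at -0.5 and 0.5 and above the dotted line at 4.41, and the 12 features left out (open) lie beyond the limits, from -1.03 to 0.63.

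In roots the members were well above the typical feature. Their mean level ran from 8.54 to 257 normalized CPM in sulfate roots, with a median of 21.8, and from 10.4 to 226 in control roots, with a median of 20.03. The median feature of the whole table had 4.54 in sulfate roots and 4.55 in control roots, and the members' control median stood at the 85.4th percentile of all features there. In control roots 6 members reached 100 normalized CPM, 29 reached 50 and 100 reached 20, so most were of moderate level. Since the pseudocount of 0.5 caps the margin of a low feature, no feature under about 10 in control roots could enter the list.

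Together the members took a small and steady share of the root libraries. Their summed level was 5942, 5999 and 5821 in the sulfate roots and 5895, 5886 and 5953 in the control roots. The means were 5921 ± 90.7 with sulfate and 5911 ± 36.7 in controls (SD, n = 3 each), and the ranges overlapped. In reads this was 0.697 to 0.725% of a root library, of which the 10 highest members held 20.1% in control roots.

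PpCO2_106936 was the highest member in roots with and without sulfate. It had 242, 259.5 and 269 normalized CPM in sulfate roots, against 267, 229 and 181 in control roots. The groups overlapped, and control root 3 was the lowest of the 6 libraries. It was also among the members with most reads in the shoot, with 8.90, 4.91 and 3.64 in sulfate needles, against 4.06, 4.86 and 6.93 in control needles.

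PpCO2_101478 had the largest margin and the second place in control roots. Its levels were 103, 98.7 and 130.2 in sulfate roots and 124, 131 and 145 in control roots, with sulfate root 3 inside the control range. In the shoot it lay between 0 and 0.521, the highest value being in cotyledon sulfate 2, while all 3 control cotyledon libraries were at 0. Its neighbour by number, PpCO2_101479, was a member as well.

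PpCO2_75799 and PpCO2_63015 completed the highest 4 in control roots. PpCO2_75799 had 131, 167 and 102 in sulfate roots and 118, 138 and 139 in control roots. PpCO2_63015 had 113, 106 and 112 in sulfate roots and 112, 128 and 125 in control roots. Neither separated the treatments, and the sulfate roots of PpCO2_75799 spread more widely than its controls.

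The next largest margins after PpCO2_101478 belonged to features of lower level that were almost silent in the shoot. PpCO2_8631 had 80.7, 88.3 and 65.5 in sulfate roots and 102, 87.0 and 96.8 in control roots, and it was at 0 in every needle and cotyledon library. PpCO2_8629 had 55.6, 65.5 and 44.1 in sulfate roots and 73.4, 57.5 and 67.3 in control roots, likewise at 0 in every needle and cotyledon library. PpCO2_8628 had 52.7, 54.2 and 50.5 in sulfate roots and 61.2, 57.6 and 62.4 in control roots.
For PpCO2_8628 the treatments did not overlap, and 15 of its 18 shoot libraries were at 0. PpCO2_11950 had 74.95, 68.3 and 85.4 in sulfate roots and 64.1, 77.5 and 76.2 in control roots. PpCO2_86427 had 76.6, 81.6 and 65.2 in sulfate roots and 60.8, 66.9 and 74.1 in control roots. In the last 2 features the groups overlapped.

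**Figure D2:**
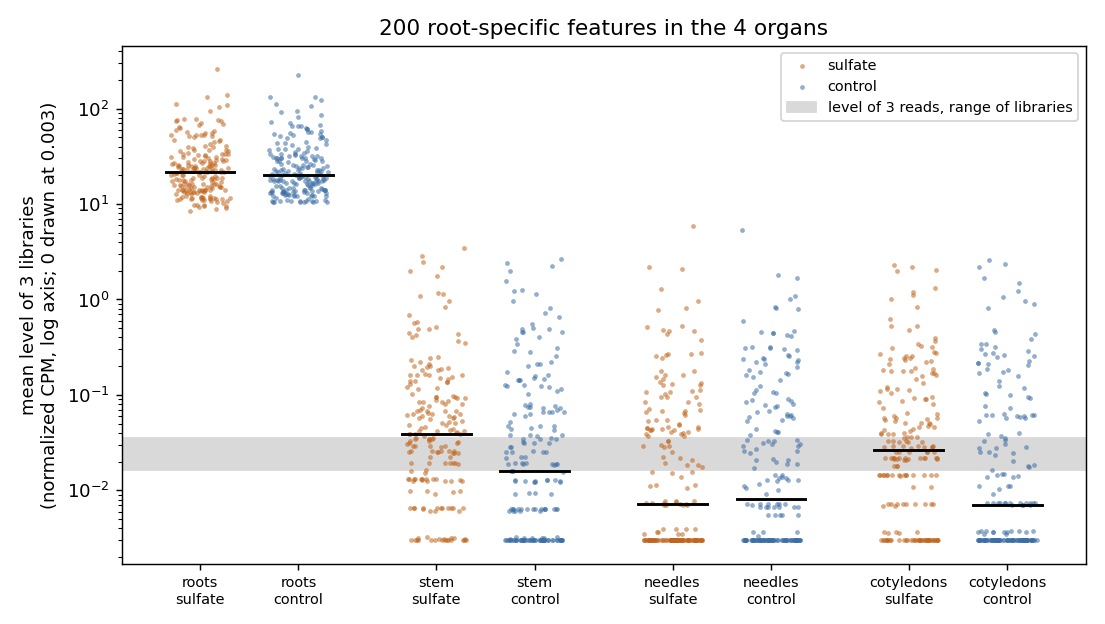
Mean level of each of the 200 members in the 8 groups of 3 libraries (y axis, normalized CPM, log axis, 0 drawn at 0.003; black bars are medians over members; the grey band is the level of 3 reads, 0.0165 to 0.0351). The root medians are 21.8 with sulfate and 20.03 in controls, and the shoot medians lie near or below the level of 3 reads.

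How steady the members were in roots can be described, though the limit itself fixed the range. Sulfate minus control differences had a median of -0.01, with 99 members higher and 101 lower, and 83 lay within 0.1 of 0, 155 within 0.25 and 187 within 0.4. Their median size was 0.128, against 0.0998 for all features and 0.0762 for the 8560 features whose control root level lay between the members' quartiles. The median SD over the 6 root libraries was 0.189 for the members, 0.142 for all features and 0.102 for features of like level. The members were thus under the limit without being the quietest features of their level.

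The sulfate and control root values did not overlap for 45 members, 22.5% of the 200, where 19.3% of all features showed no overlap. With limma and Benjamini-Hochberg adjustment over 65495 features, 6 members (3.0%) had an adjusted p under 0.05 in roots, against 1.73% of all features, 5 of them higher (2.5%, against 0.458%) and 1 lower (0.5%, against 1.27%). The rule had used this contrast, so nothing is read from these counts. Those higher were PpCO2_73985, PpCO2_73987, PpCO2_83241, PpCO2_132366 and PpCO2_132374, and that lower was PpCO2_100521, named here after their values were seen.

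The levels of 3 of them show what a difference inside the limit can amount to. It was 0.50 in PpCO2_83241 and 0.47 in PpCO2_132374, near the limit, and -0.37 in PpCO2_100521, further from it. PpCO2_83241 had 14.4, 16.6 and 15.2 normalized CPM in sulfate roots, against 11.1, 9.95 and 11.2 in control roots. PpCO2_132374 had 27.9, 30.6 and 25.2 in sulfate roots, against 18.9, 21.03 and 19.9 in control roots. PpCO2_100521 had 22.7, 23.7 and 23.6 in sulfate roots, against 29.4, 32.0 and 29.3 in control roots. In all 3 of these the groups were apart, so a feature inside the limit could still have pools that did not overlap.

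PpCO2_73985 to PpCO2_73988, which are 4 members in a row, all lay on the higher side. PpCO2_73985 had 25.4, 26.7 and 23.0 in sulfate roots, against 18.2, 16.5 and 18.5 in control roots. PpCO2_73988 had 29.7, 28.3 and 23.3 in sulfate roots, against 20.1, 17.9 and 20.9 in control roots. The 4 differences ran from 0.40 to 0.48. At the other side lay PpCO2_111221, with 34.9, 34.8 and 41.2 in sulfate roots and 44.98, 62.8 and 50.3 in control roots, and it belongs to 4 members in a row, PpCO2_111218 to PpCO2_111221, whose differences ran from -0.50 to 0.10.

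Steadiness itself differed widely among the members. The least steady were PpCO2_20813, at 9.69, 8.32 and 9.78 in sulfate roots and 13.1, 10.1 and 17.4 in control roots, and its neighbour PpCO2_20814, at 9.64, 9.10 and 10.5 in sulfate roots and 13.4, 9.86 and 17.7 in control roots. Both were highest in control root 3. The steadiest were PpCO2_134458, at 10.5, 10.7 and 10.9 in sulfate roots and 10.2, 10.8 and 10.2 in control roots, and its near neighbour PpCO2_134455, at 10.3, 10.1 and 10.9 in sulfate roots and 10.9, 11.1 and 10.6 in control roots. Across the members the coefficient of variation within a treatment had a median of 9.71% in sulfate roots and 11.04% in control roots, and its highest value was 33.4% in sulfate roots and 33.3% in control roots.

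Members clustered by identifier number, which the rule did not use. A run is taken here as features whose numbers differ by at most 2 and whose levels over the 24 libraries correlate above 0.8 from one to the next. By that definition 162 members (81.0%) lay in a run with at least 1 other feature, against 66.8% of all features, and the 200 members fell into 123 separate runs or single features. Of the members, 114 shared a run with another member, in 37 runs, 19 of them with 3 or more. A feature high in roots and near 0 elsewhere correlates readily with another of that kind, so this share describes the list and was not tested.

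The run with most members was PpCO2_8627 to PpCO2_8633, all 7 of whose features were members, at 15.2 to 78.1 normalized CPM in sulfate roots and 13.0 to 95.4 in control roots. PpCO2_20219 to PpCO2_20224 were 6 members of 6, at 14.0 to 46.4 in sulfate roots and 14.1 to 50.6 in control roots. Other runs, named here by their first and last members, were only partly in the list. Members were 6 of 13 features for PpCO2_72326 to PpCO2_72338, 6 of 8 for PpCO2_100518 to PpCO2_100524 and 5 of 6 for PpCO2_89898 to PpCO2_89903. Reads of close copies, of several transcripts of a gene, or of transcripts that overlap may have been shared among neighbouring numbers by the authors' counting, and no protocol says that strand was kept. Whether members of a run share reads was not tested.

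The limit of 0.5 divided some runs. PpCO2_132366, PpCO2_132369 and PpCO2_132374 were members with differences of 0.47 to 0.49, while PpCO2_132367, at 61.3, 66.0 and 51.8 in sulfate roots and 42.3, 40.7 and 41.4 in control roots, was left out at 0.51. PpCO2_20812, at 8.10, 7.09 and 8.64 in sulfate roots and 11.2, 9.59 and 14.8 in control roots, was left out at -0.53, beside the members PpCO2_20813 to PpCO2_20815 at -0.49 to -0.38. Of the 12 features set aside, 3 shared a run with a member. In the runs shown, the features on both sides of the limit differed in the same direction. A run is defined by correlation over the 24 libraries, which favours this, so nothing more is read from it.

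In the shoot the members were close to absent. The mean level over the 18 shoot libraries was a median of 0.0984% of the root level and at most 2.14%, in PpCO2_75792. It was under 0.1% for 101 members and over 1% for 21. In every one of the 200, the lowest of the 6 root libraries was above the highest of the 18 shoot libraries, by 12.4-fold in PpCO2_23550, 14.0-fold in PpCO2_19656 and 16.8-fold in PpCO2_75792 at the least, and by 128-fold at the median. The highest shoot values of PpCO2_23550 and PpCO2_19656, 3.09 and 4.54, were both in stem sulfate 1. Other stem libraries gave at most 1.51 and 3.15. The choice had used the control libraries and not the 9 sulfate shoot libraries.

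There were 3 members, PpCO2_502, PpCO2_503 and PpCO2_122917, with no read in any of the 18 shoot libraries. PpCO2_503 had 14.3, 13.6 and 14.6 in sulfate roots and 11.9, 14.8 and 12.5 in control roots, 9500 reads over the 6. PpCO2_502 had 12.4, 11.001 and 11.7 in sulfate roots and 9.75, 12.4 and 9.47 in control roots. PpCO2_122917 had 12.4, 12.9 and 13.9 in sulfate roots and 9.37, 14.2 and 16.1 in control roots. Set against 3 reads in the control shoot library where they are worth most, 0.0334 normalized CPM, control roots were 391-fold higher for PpCO2_503, 316-fold for PpCO2_502 and 396-fold for PpCO2_122917. This bound takes reads as counted singly. It would be lower if both mates of a pair were counted, which was not tested.

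All 9 control shoot libraries were at 0 for 33 members, and the same bound for these ran from 312-fold in PpCO2_72337 to 1656-fold in PpCO2_136218, which had 56.4, 61.0 and 55.8 in sulfate roots and 50.2, 62.2 and 53.4 in control roots. At the other end, 26 members had reads in all 18 shoot libraries. No shoot library gave more than 3 reads for 20 members, 10% of the list, where 0.465% of all features had so few. The rule had favoured low levels in the 9 control libraries among these 18, so nothing is read from that excess. Depth limits these statements, since 0 reads allow a level up to that of 3 reads, and this bound covers counting error only.

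Of the 200 members, the highest 5 held 36.9% of the members' sum in sulfate stem and 37.6% in control stem, 52.4% in sulfate needles and 44.0% in control needles, and 36.1% in sulfate cotyledons and 42.3% in control cotyledons. The members summed to 48.1, 25.7 and 31.8 in sulfate stem, against 27.3, 30.3 and 29.4 in control stem. Needles gave 27.0, 23.5 and 19.9 with sulfate, against 19.8, 27.8 and 26.6 in controls. Cotyledons gave 28.3, 32.3 and 21.1 with sulfate, against 26.7, 23.7 and 23.0 in controls. Every shoot library was thus under 1% of the root sums given above, and stem sulfate 1 was the highest of the 18.

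**Figure D3:**
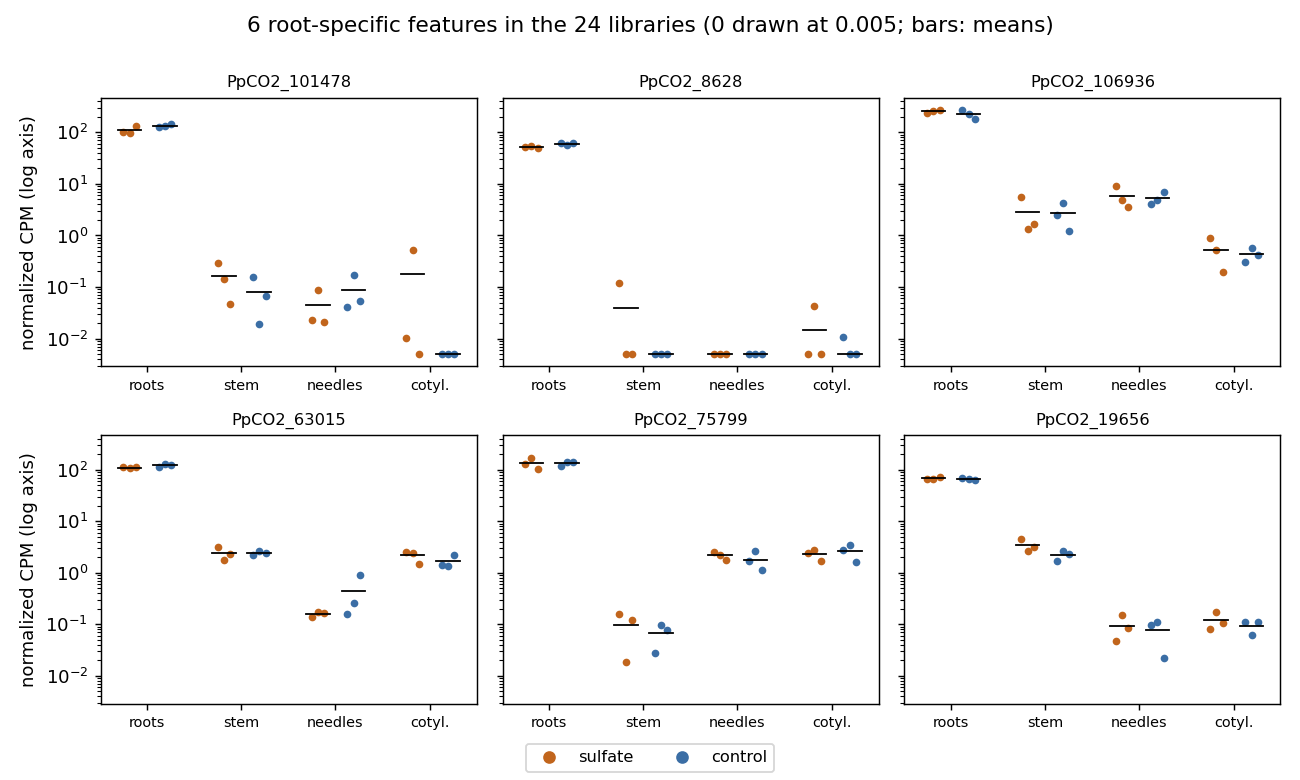
Level of 6 members in each of the 24 libraries (y axis, normalized CPM, log axis, 0 drawn at 0.005), sulfate left of control in each organ, black bars being means of 3. All 6 stand far higher in roots, with shoot traces that differ by member: needles and stem for PpCO2_106936, needles and cotyledons for PpCO2_75799, stem for PpCO2_19656, and stem and cotyledons for PpCO2_63015.

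A pair of sulfate libraries stood apart in how many members they showed. In stem sulfate 1, 32 members were at 0, against 67 to 95 in the other 5 stem libraries, and the median member was at 0.239% of its root level, against 0.0379 to 0.129%. In cotyledon sulfate 2, 51 were at 0, against 113 to 125 in the other 5 cotyledon libraries, and the median was 0.220%, against 0. They held 95915692 and 99010772 reads, and cotyledon control 1, with 195881948 reads, had 117 members at 0. The next 300 features by margin behaved alike, with 67 at 0 in stem sulfate 1, against 90 to 118 in the other stem libraries, and 84 in cotyledon sulfate 2, against 148 to 162 in the other cotyledon libraries.

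These libraries also held the highest value of their organ's 6 libraries for an unusual share of members. Stem sulfate 1 was highest for 112 members, 56.0%, against 20.1% of all features, and cotyledon sulfate 2 for 88 members, 44.0%, against 20.3%. The 33 members at 0 in all control shoot libraries give the plainest view. In stem sulfate 1, 20 of them had reads, 101 in all, and in cotyledon sulfate 2, 23 of them had 133 reads, against 0 to 9 members and 0 to 26 reads in the other 7 sulfate shoot libraries. For the 200 features chosen in needles by the same rule no such shift was seen, with 113 at 0 in stem sulfate 1, against 43 to 113 in the other stem libraries, and 102 in cotyledon sulfate 2, against 93 to 99 in the other cotyledon libraries. What set these libraries apart was not tested, and summaries over the members below are also given without them.

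**Figure D4:**
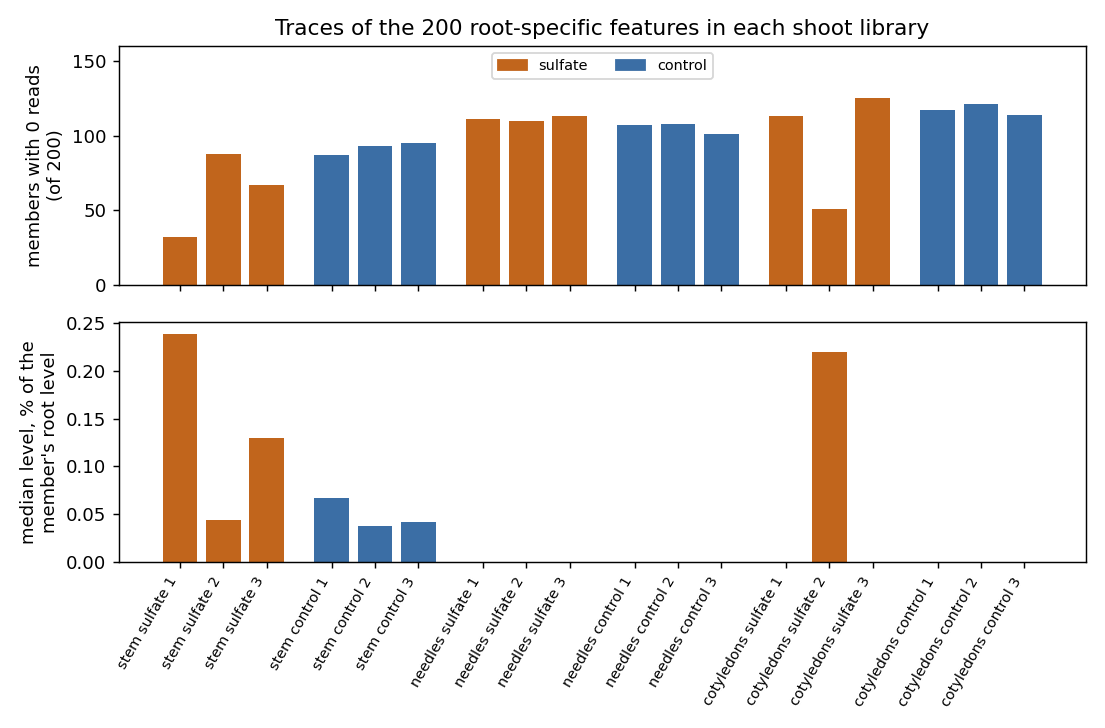
For each of the 18 shoot libraries, the number of the 200 members with 0 reads (upper panel) and the median member level as a percent of its root mean (lower panel; bars absent where the median is 0), sulfate left of control in each organ. Stem sulfate 1 (32 at 0, 0.239%) and cotyledon sulfate 2 (51 at 0, 0.220%) stand apart from the other libraries of their organs.

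The sulfate effect in the shoot asks whether a feature that held steady in roots moved where it is barely expressed. Few members could be tested, because a fit needs a level of 0.1 in 3 of its 6 libraries. In stem 49 members were tested, in needles 40 and in cotyledons 42, and the control libraries of these fits had been used by the rule. With limma and Benjamini-Hochberg adjustment, stem had 0 members past the threshold, where 0.608% of all features passed, needles 0, where 0.475% passed, and cotyledons 0, where 0.266% passed. At an unadjusted p under 0.05 there were 4 members in stem (8.16%, against 10.9% of all features), 2 in needles (5.0%, against 7.14%) and 2 in cotyledons (4.76%, against 8.28%), and edgeR and DESeq2 on recovered reads also called 0 in each organ. The lowest adjusted p by limma with Benjamini-Hochberg adjustment were 0.344 in stem, 0.668 in needles and 0.480 in cotyledons.

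The sizes were small on the log2 scale of level + 0.5, which at these levels understates a fold. They ran from -0.59 to 0.78 in stem, from -0.63 to 0.26 in needles, and in cotyledons from -0.74 to 0.63. Medians over the members tested were 0.06, -0.02 and -0.01 in that order, beside 0.00, -0.01 and 0.00 for all features tested. Without stem sulfate 1 the stem median was -0.03, with 24 of the 49 members positive, against 31 of the 49 with it. Without cotyledon sulfate 2 the cotyledon median was -0.03, with 20 of the 42 members positive in both cases. At these depths and levels a change of a trace cannot be told from its spread between pools, and a missed threshold does not show that the levels were equal.

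The nearest to a call in stem were a fall and a rise. PpCO2_37627 had 0.548, 0.285 and 0.644 normalized CPM in sulfate stem, against 1.22, 0.956 and 0.751 in control stem, a difference of -0.58 ± 0.19 (SE) with an adjusted p of 0.344 by limma with Benjamini-Hochberg adjustment. PpCO2_144539 had 0.362, 0.419 and 0.257 in sulfate stem, against 0.184, 0.191 and 0.0578 in control stem, a difference of 0.40 ± 0.14. In both the groups did not overlap and neither passed.

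In needles the lowest p in each direction belonged to PpCO2_54623 and PpCO2_171368. PpCO2_54623 had 0.164, 0.0220 and 0 in sulfate needles, against 0.190, 0.280 and 0.480 in control needles, a difference of -0.53 ± 0.19. PpCO2_171368 had 0.211, 0.198 and 0.365 in sulfate needles, against 0.115, 0.160 and 0.229 in control needles, a difference of 0.18 ± 0.15. Only the first kept its groups apart.

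In cotyledons they were PpCO2_111221 and PpCO2_132374, both of which also lay near the limit in roots. PpCO2_111221 had 0.249, 0.217 and 0.204 in sulfate cotyledons, against 0.0549, 0.0836 and 0.0334 in control cotyledons, a difference of 0.38 ± 0.11, while in roots it lay lower with sulfate. Its control values were all under the minimum of 0.1, so it was tested only through its sulfate libraries. The rule had also favoured low control levels in the shoot, so this difference is not read as a rise. PpCO2_132374 had 0.197, 0.0868 and 0.204 in sulfate cotyledons, against 0.494, 0.178 and 0.690 in control cotyledons, a difference of -0.49 ± 0.22, while in roots it lay higher with sulfate. Neither passed, and the difference between organs was not tested.

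The members' summed level moved only with the libraries that stood apart. In stem the sulfate mean was 35.2 ± 11.5 and the control mean 29.0 ± 1.55 (SD, n = 3 each), a difference of 6.19 that became -0.24 without stem sulfate 1. In cotyledons the sulfate mean was 27.3 ± 5.67 and the control mean 24.4 ± 1.99, a difference of 2.83 that became 0.29 without cotyledon sulfate 2. In needles the means were 23.5 ± 3.56 with sulfate and 24.7 ± 4.28 in controls. Likewise, 3 members were at 0 in all 9 sulfate shoot libraries, and 33 were at 0 in the 7 left without both libraries. In the 9 control libraries, where the rule had favoured low levels, 33 were at 0. Leaving out libraries can only raise such a count, and 7 libraries are fewer than 9. No likeness of the treatments is therefore read from these counts.

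The margin over the shoot was also present with sulfate. With the sulfate libraries of every organ, the margin ran from 4.10 to 7.45 with a median of 5.03, 177 members stayed at or above the control margin of the 200th, and 167 were among the 200 largest margins in these libraries. Without stem sulfate 1 and cotyledon sulfate 2 the margin ran from 4.02 to 7.54 with a median of 5.02, and the same counts were 179 and 167. The sulfate root libraries enter this value and had been used for the limit, while the sulfate shoot libraries had not been used.

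Which shoot organ held the highest trace depended on the libraries. In control libraries it was stem for 81 members, needles for 48 and cotyledons for 38, with 33 at 0 in all 3 organs. In sulfate libraries it was stem for 107, needles for 19 and cotyledons for 71, with 3 at 0 in all. Leaving out both stem sulfate 1 and cotyledon sulfate 2 gave 90, 33 and 44 in the same order, with 33 at 0. Leaving out only cotyledon sulfate 2 gave 131, 24 and 32, with 13 at 0, and leaving out only stem sulfate 1 gave 76, 28 and 88, with 8 at 0. Of the 167 members with a trace in both treatments, the organ was the same for 103, and without both libraries for 102 of 155.

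Among the 9 sulfate shoot libraries, members with measurable traces could be compared between organs with values the rule had not used. The fit took levels of at least 0.1 in 3 of the 9 libraries, which 62 members met and 138 did not. A member that met this through a single organ where it was high had to differ between organs, so the counts describe these 62 and stand for nothing beyond them. By limma with Benjamini-Hochberg adjustment, 20 were higher in stem than in needles (32.3%, against 33.3% of all features) and 10 lower (16.1%, against 26.3%). Between stem and cotyledons 18 were higher in stem (29.0%, against 32.6%) and 12 lower (19.4%, against 32%), and between needles and cotyledons 6 were higher in needles (9.68%, against 18.7%) and 8 lower (12.9%, against 17.1%).
In all, 41 passed in at least 1 pair and 21 in none, and the shares were near or under those of all features.

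Of the 62, 13 members were higher in stem than in both leaf organs (21%, against 26.3% of all features), 3 higher in needles than in both others (4.84%, against 6.56%) and 3 higher in cotyledons than in both others (4.84%, against 11.1%). Lower in stem than in both leaf organs were 7 (11.3%, against 22.7%). Some of the 13, PpCO2_40290, PpCO2_55024, PpCO2_59288 and PpCO2_180608 among them, reached 0.1 with sulfate in stem libraries only. They entered the fit through the organ where they were high, so nothing is read from the calls of such members. The largest stem differences were those of PpCO2_19656, with 4.54, 2.64 and 3.15 in sulfate stem, against 0.0468, 0.154 and 0.0834 in sulfate needles and 0.0831, 0.174 and 0.107 in sulfate cotyledons. Its stem minus needles difference was 2.71 ± 0.18 (SE, adjusted p = 6.57e-07) and its stem minus cotyledons difference 2.64 ± 0.18 (adjusted p = 5.87e-07), by limma with Benjamini-Hochberg adjustment. Control stem, at 1.69, 2.68 and 2.32, showed the same order, and the root level of this member was 65.5 to 72.0 with sulfate and 63.3 to 70.1 in controls.

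PpCO2_85934 was next by its stem minus cotyledons difference, with 2.57, 1.28 and 2.72 in sulfate stem, against 0.140, 0.254 and 0.427 in sulfate needles and 0.374, 0.174 and 0.0215 in sulfate cotyledons. Its stem minus cotyledons difference was 1.95 ± 0.27. PpCO2_23550, the member whose root and shoot values came closest, averaged 1.74 in sulfate stem, 0.113 in sulfate needles and 0.268 in sulfate cotyledons. Its value in stem sulfate 1 was 3.09, against at most 1.51 in the other stem libraries, so that closeness rests on stem sulfate 1. In PpCO2_19656 stem sulfate 1 was the highest of the 3 libraries, while the lowest, 2.64, was still above every leaf library. Leaving out each library in turn, stem sulfate 1 included, gave 2.51 to 2.85 for stem minus needles and 2.45 to 2.79 for stem minus cotyledons of PpCO2_19656, and 1.76 to 2.22 for stem minus cotyledons of PpCO2_85934.

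Features numbered PpCO2_75792 to PpCO2_75801, which form more than 1 run by the definition above, included 6 of the 7 members lowest in stem. PpCO2_75799 had 0.157, 0.0190 and 0.120 in sulfate stem, against 2.51, 2.23 and 1.78 in sulfate needles and 2.42, 2.82 and 1.71 in sulfate cotyledons. Its differences were -2.16 ± 0.19 from needles and -2.22 ± 0.19 from cotyledons. PpCO2_75792 had 0.0391, 0 and 0.0828 in sulfate stem, against 2.12, 2.60 and 1.54 in sulfate needles and 1.76, 2.85 and 1.54 in sulfate cotyledons, with differences of -2.24 ± 0.22 from needles and -2.21 ± 0.22 from cotyledons. Leaving out each library in turn, these 4 differences stayed between -2.40 and -1.99.
PpCO2_75798 and PpCO2_75801 were alike, at -1.64 ± 0.21 and -1.45 ± 0.18 from needles. PpCO2_75793 and PpCO2_75797 were higher in cotyledons than in needles as well, PpCO2_75797 at 1.12, 0.814 and 1.37 in sulfate cotyledons and 0.608, 0.529 and 0.459 in sulfate needles. In control libraries stem was again the lowest organ for these 6, with PpCO2_75799 at 0.0667 ± 0.0351 in stem, 1.80 ± 0.750 in needles and 2.61 ± 0.953 in cotyledons (SD, n = 3 each).

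In roots the same features fell into 2 patterns across the pools. PpCO2_75792, PpCO2_75798, PpCO2_75799 and PpCO2_75801 were all highest in sulfate root 2 and lowest in sulfate root 3, as in PpCO2_75801 with 50.7, 63.4 and 39.1, against 43.3, 48.7 and 53.8 in control roots. For PpCO2_75793 and PpCO2_75797 the lowest sulfate library was instead root 1, and PpCO2_75793 had 27.1, 32.9 and 33.4, against 26.9, 31.2 and 32.9 in control roots. The levels of PpCO2_75793 and PpCO2_75797 were nearly the same library by library, and whether reads of close copies were shared between these features was not tested.

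Another stretch of numbers, PpCO2_63011, PpCO2_63015 and PpCO2_63023, was lowest in needles. PpCO2_63015 had 0.140, 0.176 and 0.167 in sulfate needles, against 3.23, 1.77 and 2.36 in sulfate stem and 2.56, 2.46 and 1.48 in sulfate cotyledons. Stem minus needles was 2.13 ± 0.22 and needles minus cotyledons -1.99 ± 0.22. PpCO2_63011 had 0.164, 0.0882 and 0.188 in sulfate needles, against 1.62, 1.28 and 0.730 in sulfate cotyledons, a difference of -1.37 ± 0.24.
PpCO2_63023 differed by -1.12 ± 0.18 in the same direction. In control needle 3 all 3 features were higher than in the other control needle libraries, PpCO2_63015 at 0.916, against 0.157 and 0.260.

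Needle traces were led by PpCO2_106936, whose needles minus cotyledons difference was 2.58 ± 0.48 and whose stem minus needles difference, -1.03 ± 0.48, did not pass. PpCO2_37627 had 0.421, 0.783 and 1.09 in sulfate needles, against 0.208, 0.0651 and 0 in sulfate cotyledons, a difference of 1.08 ± 0.23, and was at 0 in all 3 control cotyledon libraries. The members higher in needles than in both other organs were PpCO2_100326, PpCO2_94863 and PpCO2_73591. With sulfate, PpCO2_94863 and PpCO2_73591 reached 0.1 in needle libraries only. They entered the fit through the organ where they were high, so nothing is read from their calls. PpCO2_94863 had 0.585, 0.397 and 0.427 in sulfate needles, against 0.0196, 0.0381 and 0.00920 in sulfate stem and 0.0623, 0.0326 and 0.0429 in sulfate cotyledons. PpCO2_21270 was the third member highest in cotyledons, at 0.530, 0.369 and 0.526 with sulfate, against 0.117, 0.0441 and 0.167 in sulfate needles.

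**Figure D5:**
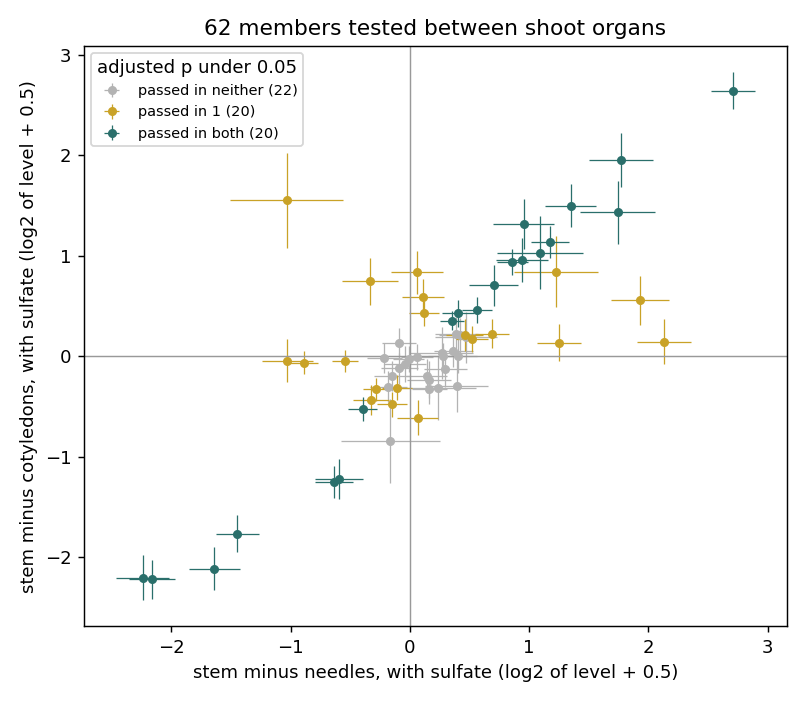
Stem minus needles (x axis) against stem minus cotyledons (y axis) with sulfate, on log2 of level + 0.5, for the 62 members tested. Points are limma estimates with SE bars, coloured by whether the adjusted p was under 0.05 in both comparisons (20), in 1 (20) or in neither (22). PpCO2_19656 lies at the upper right (2.71, 2.64) and PpCO2_75792 and PpCO2_75799 at the lower left.

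Across the 200 members, levels in roots and traces in the shoot can be set side by side. The rule kept a feature with a higher control shoot trace only if its control root level was higher too. That alone favours a positive correlation between roots and shoot organs, so no relation is read from it. Spearman's rho between the root mean and the organ mean was 0.53 for stem, 0.46 for needles and 0.52 for cotyledons, and between shoot organs it was 0.60 for stem and needles, 0.60 for stem and cotyledons and 0.70 for needles and cotyledons. These are descriptions over 200 features that share libraries and depth and may share reads, many of them at 0 in the shoot, and carry no test.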

How the data were processed

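Poly(A) RNA of 24 libraries (4 organs, 2 treatments, 3 pools each) was sequenced as paired reads of 150 bp, per the labels' protocols. Of the tools, bcl2fastq and BWA are known from the submitters' processing notes. How reads were counted, on which reference, how libraries were scaled and what was filtered is not given in the sources used here. Values of the deposited table were handled as a signal: CPM on a library size the authors had rescaled. All values of each library are whole multiples of its smallest step within 0.01 of a step (100% of values), so reads were recovered, 92664463 to 195881948 per library. In needles control 2 that step is 0.00999, close to a rounding unit of 0.01, so reads of that library are less certain. An even count was found for 57.9 to 69.9% of values from 1 to 20 reads, and counting of both mates was not tested.

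The members and the lists and rules for naming were chosen with earlier results of these data known. limma 3.58.1 (trend, robust) in R 4.3.3 was fitted on log2(level + 0.5) to all features with a level of at least 0.1 in 3 libraries of the fit, per shoot organ (sulfate minus control) and between shoot organs of the sulfate libraries, with Benjamini-Hochberg adjustment over the features fitted and a threshold of 0.05. A minimum of 1 would have left out most members in the shoot. edgeR 4.0.16 and DESeq2 1.42.0 on recovered reads, other pseudocounts and minimums, other scalings and leaving out each library were alternatives. The fits were tested on simulated data with changes planted only in features averaging at least 1, so that test does not cover the lower levels of most members in the shoot. Described in full were the 6 members with the largest margin, the 4 highest in control roots, those at the limits, the least and most steady 2 in roots, the 3 highest in a control shoot organ, and in each comparison up to 2 members each way, or the lowest p where none passed. Others were named after their values were seen.

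Same-numbered libraries pair, by deviations from group means that correlate above 0.1 in all 3 pairs, in cotyledons (r = 0.171 to 0.301), stem and needles (0.155 to 0.374) and stem and cotyledons (0.278 to 0.355) and not in the other comparisons.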

Additional observations from a re-analysis of the deposited data

How the results depend on the processing

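Choosing the members again returned 152 of the 200 with a pseudocount of 0.1 and 149 with 2, 155 with a limit of 0.25, 190 with a limit of 1, 189 with none, 199 with median-ratio scaling, and 185 to 200 when each of the 15 libraries the rule uses was left out in turn, so the end of the list depends on the pseudocount more than on any 1 library. No called difference of a named member reversed, while the median stem effect of the members, 0.06, and the difference in summed stem level, 6.19, turned to -0.03 and -0.24 without stem sulfate 1, as did the median of stem minus cotyledons, 0.02, to -0.04. With a minimum level of 1, fewer members could be tested, and 6 were higher and 4 lower for stem minus needles, 4 and 4 for stem minus cotyledons, and 1 and 3 for needles minus cotyledons. With a replicate block, the pairing of same-numbered libraries gave 21 higher and 11 lower, 19 and 12, and 7 and 9 in these comparisons, and 0 members in each organ for the sulfate effect. Over all features it gave 290 calls in stem, 339 in needles and 162 in cotyledons, and no total, nor any count of members, moved by over 1.5 times. Its higher calls were 43 in stem, 42 in needles and 27 in cotyledons, against 76, 21 and 9 without it. Where the numbers do not pair by the check, r was -0.206 to 0.245 in stem, -0.353 to 0.211 in needles, -0.0413 to 0.0700 in roots and 0.0669 to 0.448 between needles and cotyledons.

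Over all features limma called 392 for the sulfate effect in stem, 309 in needles and 169 in cotyledons and edgeR 392, 306 and 124, against 1601, 838 and 938 by DESeq2, and a fit of all 24 libraries called 745 in needles and 510 in cotyledons (the cause was not tested). Leaving out each library gave 196 to 408 calls for stem, 235 to 364 for needles and 72 to 187 for cotyledons. Members higher in stem were 0 to 1, the 1 appearing without stem control 3. Leaving out libraries gave 18 to 22 members higher and 8 to 11 lower for stem minus needles, 15 to 18 and 9 to 14 for stem minus cotyledons, and 5 to 7 and 6 to 9 for needles minus cotyledons. Alternatives chosen after seeing the data left out stem sulfate 1, cotyledon sulfate 2 or both. Members at 0 in every sulfate shoot library were then 8 without stem sulfate 1, 13 without cotyledon sulfate 2 and 33 without both, against 3. Members with their highest sulfate shoot level in stem were then 76 to 131, in needles 24 to 33 and in cotyledons 32 to 88, with 44 in cotyledons without both. Traces at 0 to 3 reads are at the limit of depth, and features with neighbouring numbers may share reads.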
